A study of Rattus norvegicus with 9 samples.

Results

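The unfolded protein and amino acid stress genes described here are 9 genes of the rat uterus: Ddit3, Atf4, Atf3, Trib3, Asns, Slc7a5, Hspa5, Xbp1 and Herpud1. They were chosen from earlier results on these same arrays and found by the platform's gene symbol, and the probe set with the highest mean intensity stood for each gene. All 9 were among the 10973 genes tested. Only Trib3 had more than 1 probe set, and 11 probe sets named the 9 genes in all. Because the choice used these measurements, the values of the 9 genes are given as a description, and no p-value is used to support them.

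Total RNA of uterine tissue from female rats was hybridised to 9 Affymetrix arrays in 3 groups of 3. The treatment group (arrays 31, 32 and 33) had electroacupuncture at the Guanyuan and Sanyinjiao points, in sessions of 15 min on 7 days before ovulation induction and further during it. Induction was by 0.5 U per rat of pregnant horse serum gonadotropin (PMSG), an agent that drives follicle growth, followed 48 h later by the same amount of human chorionic gonadotropin (HCG), which triggers ovulation. The model group (arrays 21, 22 and 23) had the induction without electroacupuncture, and the control group (arrays 41, 42 and 43) was untreated. According to the labels, the study had 18 rats, 6 in each group, and whether an array stands for 1 animal is not stated, so p-values measure the spread between these arrays, which may be technical. Strain, age, the time of tissue collection and the cycle stage of the control rats are not known here. The labels describe no group with acupuncture but no induction, so acupuncture is compared only on an induced background.

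Proteins that enter the endoplasmic reticulum (ER) are folded there by chaperones, and unfolded protein is sensed by IRE1, PERK and ATF6, which switch on the unfolded protein response. IRE1 splices the Xbp1 messenger into the form that encodes an active transcription factor, ATF6 and XBP1 raise chaperone and ER degradation genes, and PERK phosphorylates eIF2 alpha, which favours translation of ATF4. Lack of amino acids reaches ATF4 by another eIF2 alpha kinase, GCN2, so ATF4 with its targets DDIT3, ATF3, TRIB3, ASNS and SLC7A5 is shared between both kinds of stress. Secretory cells such as those of the endometrial glands and the decidua rely on this machinery. ATF4 and XBP1 are controlled largely by translation and splicing, which these arrays did not measure.

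The promoters of the genes on which the results turn are shown because the ER members carry known stress motifs close to their start. RefSeq windows of build GRCr8, from 250 bases before to 50 bases after the start, were matched by symbol for 8 of 9 genes, all but Atf3. The window of Hspa5 is chr3:38452766-38453065 on the plus strand, that of Xbp1 chr14:84604373-84604672 on the plus strand, that of Herpud1 chr19:10614658-10614957 on the minus strand and that of Ddit3 chr7:65001445-65001744 on the plus strand. Each is written 5′ to 3′ along the gene, and capitals mark matches to any of 5 motifs searched on both strands.
Hspa5: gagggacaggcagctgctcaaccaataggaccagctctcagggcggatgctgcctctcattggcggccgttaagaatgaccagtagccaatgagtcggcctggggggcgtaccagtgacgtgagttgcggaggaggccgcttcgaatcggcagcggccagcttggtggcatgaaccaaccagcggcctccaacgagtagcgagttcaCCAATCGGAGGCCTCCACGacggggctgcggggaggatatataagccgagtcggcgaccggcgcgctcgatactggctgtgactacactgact
Xbp1: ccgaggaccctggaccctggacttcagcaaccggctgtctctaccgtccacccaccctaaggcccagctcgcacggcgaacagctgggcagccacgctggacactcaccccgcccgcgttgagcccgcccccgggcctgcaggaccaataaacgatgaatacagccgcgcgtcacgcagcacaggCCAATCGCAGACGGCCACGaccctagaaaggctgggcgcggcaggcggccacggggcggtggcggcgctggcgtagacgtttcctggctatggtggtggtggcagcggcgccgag
Herpud1: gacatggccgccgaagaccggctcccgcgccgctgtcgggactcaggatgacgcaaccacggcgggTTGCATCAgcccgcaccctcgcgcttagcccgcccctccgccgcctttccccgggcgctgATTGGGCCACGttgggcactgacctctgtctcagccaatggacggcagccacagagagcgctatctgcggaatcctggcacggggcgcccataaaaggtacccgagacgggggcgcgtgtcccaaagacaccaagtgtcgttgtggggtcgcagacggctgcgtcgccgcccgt
Ddit3: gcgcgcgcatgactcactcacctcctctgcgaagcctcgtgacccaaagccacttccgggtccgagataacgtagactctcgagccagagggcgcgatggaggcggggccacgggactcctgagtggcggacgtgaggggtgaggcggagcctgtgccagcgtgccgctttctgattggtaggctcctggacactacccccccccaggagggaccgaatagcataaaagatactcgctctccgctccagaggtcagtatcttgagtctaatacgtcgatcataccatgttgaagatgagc
The capitals in Hspa5 and Xbp1 are the ER stress response element ERSE (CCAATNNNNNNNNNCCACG), which lay 43 to 25 bases before the start of Hspa5 and 65 to 47 bases before that of Xbp1. Of 33469 rat promoter windows of this length, 22 (0.0657%) held ERSE. In Herpud1 the second run of capitals is ERSE-II (ATTGGNCCACG), 124 to 114 bases before the start, which 17 windows (0.0508%) held. Its first run, 184 to 177 bases before the start, matched the C/EBP-ATF response element (TGATGNAA), the letters bound by ATF4 with C/EBP factors, on the reverse strand. Trib3 held this element 21 to 14 bases before its start, also on the reverse strand, and 1332 windows (3.98%) held it. The letters TGACGTGG (UPRE, in 0.595% of windows) and TGACGTCA (CRE, in 1.83%) were in none of the 8 windows. ERSE-II and ERSE share the letters CCACG, but no base of these windows was counted for both. No motif of the 5 was found in the Ddit3, Atf4, Asns and Slc7a5 windows, which says only that these letters are not in these windows. Only exact matches were counted, so elements with a changed base were not found.

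Among the other genes of the pathway, listed as textbook genes, ERSE was found in 6 of 19 ER chaperone windows (31.6%), those of Calr, Canx, Creld2, Dnajc3, Ero1b and Hsp90b1. The C/EBP-ATF element was found in 7 of 17 windows of cytosolic aminoacyl-tRNA synthetases (41.2%) and in 5 of 26 windows of other ATF4 targets (19.2%). A match is a description of the letters and not a measurement of binding.

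Values are the deposited intensities and, for differences, log2(intensity + 16), a scale on which changes of dim genes come out smaller. At least 40% of probe sets lay below each member's main probe set on all 9 arrays. Array 43 stood apart from the other controls: over the tested genes its log2 values correlated with controls 41 and 42 at r = 0.887 and 0.916, against 0.980 between these 2 arrays, and with model 21 at 0.972. The differences from control are also given without array 43 for the 9 genes and for the median of each pathway list. Markers of smooth muscle (12 of 12 listed), stroma (9 of 9) and epithelium (15 of 16) were measured, as the label of uterine tissue asks. In these bulk samples, fewer cells of a type and less RNA per cell cannot be told apart.

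Ddit3 and Slc7a5 had the smallest unadjusted p-values of the 9 genes in treatment against model, and they stood on opposite sides. Ddit3 was lower in all 3 treatment arrays than in any model array, and Slc7a5 was higher. Treatment and model arrays were separated in this way for 28.0% of all genes tested. Neither passed an adjusted p of 0.05 in limma, where no gene of 10973 did. Cell type markers also differed between these groups. All 6 endothelial markers tested (of 7 listed) had a lower mean in treatment than in model (median log2 difference -0.68). Their summed intensities were 729, 275 and 687 on treatment arrays 31, 32 and 33 and 806 to 912 in model. Pecam1 and Kdr overlapped between these groups, and Tek, Tie1, Vwf and Emcn did not. In treatment minus model, 7 of 7 leukocyte markers and 8 of 9 stromal markers were negative (medians -0.56 and -0.43), and 12 of 15 epithelial markers were positive (median 0.30). Of all genes, 38.9% were positive in this comparison. Leukocyte sums were 103 to 179 in treatment and 105, 541 and 270 on model arrays 21, 22 and 23, and each leukocyte marker overlapped between the groups. Stromal sums were 7805 to 12520 in treatment and 10512 to 13943 in model. None of these markers passed in limma, and their part in the Ddit3 and Slc7a5 values was not tested. The other 7 genes overlapped between these groups, among them Hspa5, Xbp1 and Atf4, whose mean log2 differences were near 0.

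Ddit3 encodes CHOP, a transcription factor downstream of ATF4 that promotes cell death in prolonged ER stress. Its intensity was 37.2, 30.8 and 40.3 on treatment arrays 31, 32 and 33, 54.9, 73.9 and 74.5 on model arrays 21, 22 and 23, and 49.6, 46.8 and 50.6 on control arrays 41, 42 and 43. The 3 groups did not overlap: the treatment arrays were the lowest, the controls lay between and the model arrays were the highest. On the log2 scale the group values were 5.70 ± 0.14 in treatment, 6.38 ± 0.20 in model and 6.02 ± 0.04 in control (SD, n = 3 each). The difference was -0.68 for treatment minus model (SE 0.11, 95% interval -0.94 to -0.42, limma adjusted p = 0.286), the 4th smallest p of all genes. It was -0.32 for treatment minus control (SE 0.11, limma adjusted p = 0.222) and 0.36 for model minus control (SE 0.11, limma adjusted p = 0.313). Ddit3 was chosen with these contrasts known, so the rank of its p is not support. Both comparisons against control share the control arrays, and both comparisons of the model share the model arrays, so these differences are not independent of each other. The 2 differences from control were -0.30 and 0.38 without control 43. The treatment minus model difference was -0.80 to -0.61 with any 1 array left out. Ddit3 is dim too, and with 1 or 64 added in place of 16 this difference was -0.89 or -0.39.

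Slc7a5 encodes LAT1, the light chain of a transporter that brings large neutral amino acids such as leucine into cells. Its intensity was 38.7, 37.9 and 34.8 on treatment arrays 31, 32 and 33, 21.7, 24.2 and 25.4 on model arrays 21, 22 and 23, and 29.4, 23.8 and 29.5 on control arrays 41, 42 and 43. All treatment arrays lay above every other array, and model and control arrays overlapped. Log2 values were 5.73 ± 0.06 in treatment, 5.31 ± 0.07 in model and 5.44 ± 0.11 in control (SD, n = 3 each). The difference was 0.42 for treatment minus model (SE 0.08, 95% interval 0.24 to 0.59, limma adjusted p = 0.286), the 8th smallest p of all genes, and 0.29 for treatment minus control (SE 0.08, 95% interval 0.12 to 0.46). Model minus control was -0.13. Slc7a5 was also chosen with these contrasts known, so the rank of its p is not support. Without control 43, treatment minus control was 0.32 and model minus control -0.10. Slc7a5 is dim, so the added constant matters: with 1 in place of 16 the treatment minus model difference was 0.62, and with 64 it was 0.20. The heavy chain that LAT1 pairs with, Slc3a2, named here for that role, measured 164.8, 167.3 and 187.3 on the treatment arrays, 157.8, 180.4 and 190.5 on the model arrays and 138.8, 141.0 and 185.3 on the control arrays. Slc3a2 overlapped between all groups, with a treatment minus model difference of -0.02 (SE 0.12).

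**Figure D1:**
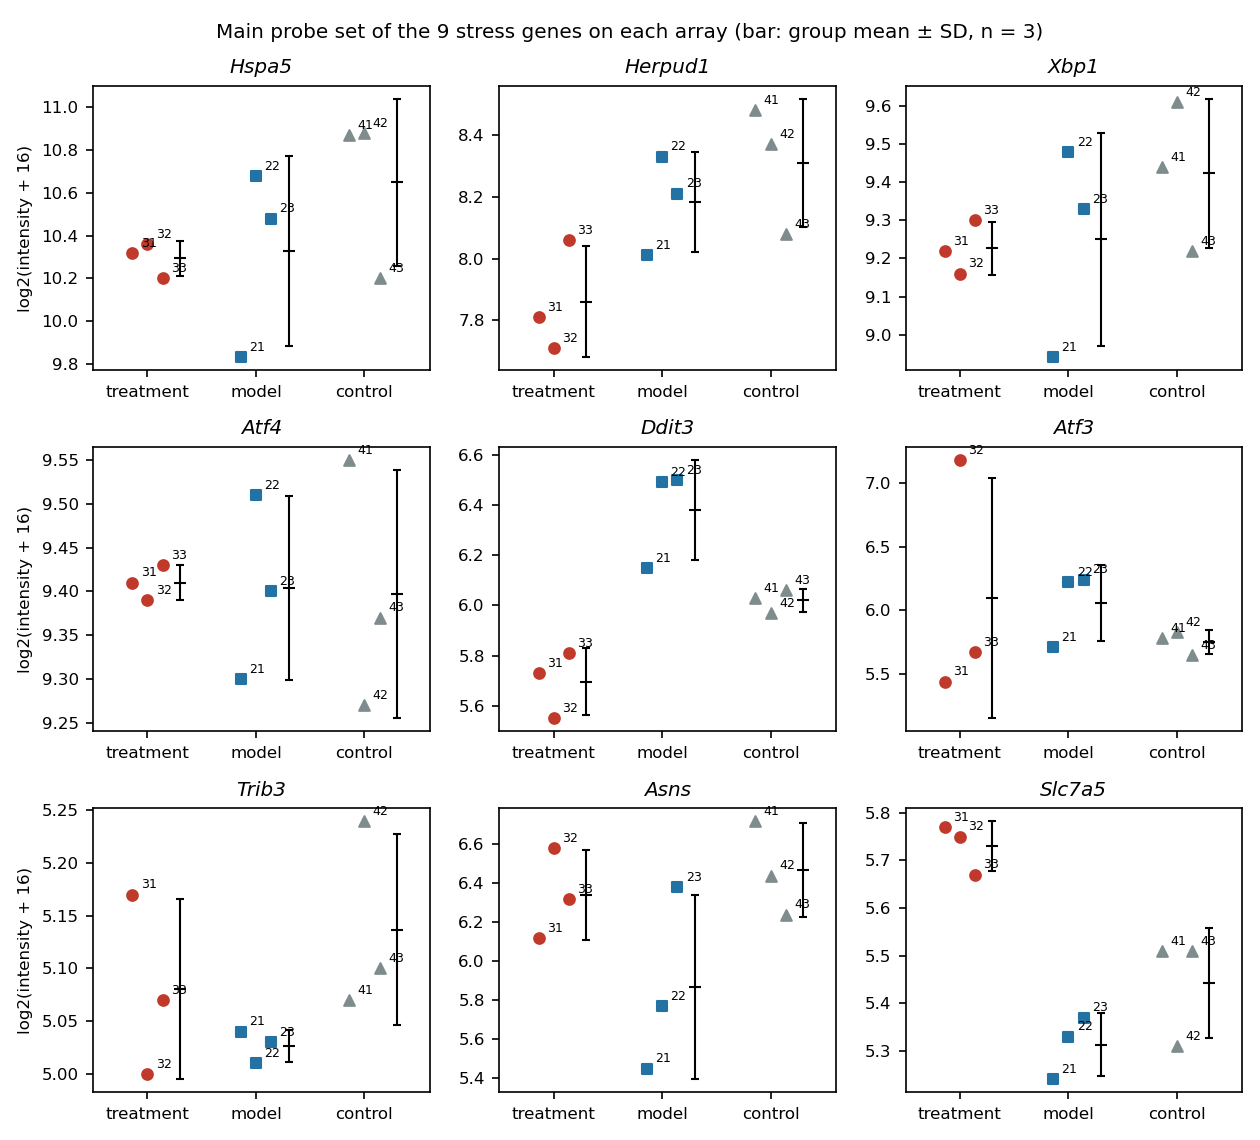
Log2(intensity + 16) of the main probe set of each of the 9 genes on each array, by group with treatment on the left, then model, then control; points are arrays and bars are the group mean ± SD of 3 arrays. Ddit3 separates the 3 groups (means 5.70, 6.38 and 6.02) and Slc7a5 is higher on every treatment array (mean 5.73) than on any model (5.31) or control array (5.44), whereas the groups of Atf4 and Hspa5 overlap.

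Asns, asparagine synthetase, makes asparagine from aspartate and is a classical amino acid response gene. It measured 53.4, 79.9 and 63.9 on treatment arrays 31, 32 and 33, 27.6, 38.6 and 67.0 on model arrays 21, 22 and 23, and 89.5, 70.8 and 59.8 on control arrays 41, 42 and 43. Model arrays 21 and 22 were the lowest of all 9, and model 23 lay among the treatment and control arrays. The difference was 0.48 for treatment minus model (SE 0.24, 95% interval -0.07 to 1.02), -0.13 for treatment minus control and -0.60 for model minus control (SE 0.24, 95% interval -1.15 to -0.06). Without model 23 the first was 0.73 and without model 21 it was 0.27. The differences of Asns from control were -0.24 for treatment and -0.72 for model without control 43.

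Atf3, an early stress factor that feeds back on ATF4 targets, had the widest spread of the 9 genes, 1.74 on the log2 scale over the 9 arrays, a range wider than that of 94.5% of all genes tested. Its intensity was 27.4, 128.9 and 35 on treatment arrays 31, 32 and 33, 36.5, 58.4 and 59.7 on model arrays 21, 22 and 23, and 38.9, 40.7 and 34.1 on control arrays 41, 42 and 43. Array 32 alone was high, and the other treatment arrays lay within or below the model and control arrays. The differences were 0.04 for treatment minus model (SE 0.40) and 0.35 for treatment minus control, and without array 32 they were -0.50 and -0.20. The treatment minus model difference changed sign in 4 of 21 alternative settings. It reached -0.19 in a setting other than leaving 1 array out. The treatment minus control difference changed sign in 1 of 21, the setting without array 32. Model minus control was 0.31. Leaving out control 43 gave 0.29 for treatment minus control and 0.26 for model minus control. On array 32 the summed intensity of 6 endothelial markers was 275, against 729 and 687 on arrays 31 and 33, and that of 10 immediate early genes was 1788, against 1499 and 1865. Whether cell make-up or handling has a part in the Atf3 value was not tested.

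Atf4 itself, the transcription factor at the head of the amino acid response, was nearly level. It measured 664.0, 653.7 and 674.6 on the treatment arrays, 612.2, 712.4 and 660.0 on the model arrays and 731.5, 601.5 and 647.9 on the control arrays. Its range over the arrays, 0.28, was narrower than that of most genes (percentile 12.7), and the treatment minus model difference was 0.01 (95% interval -0.21 to 0.23). Its differences from control were 0.01 for treatment and 0.00 for model, and without control 43 they were 0.00 and -0.01. Trib3, a pseudokinase induced by ATF4 and CHOP, was dim. Its main probe set read 19.9, 16.1 and 17.7 on the treatment arrays, 16.8, 16.3 and 16.7 on the model arrays and 17.7, 21.9 and 18.2 on the control arrays, and its other 2 probe sets read 6.2 to 8.3 and 7.1 to 13.5, below the filter on every array. The model arrays lay below the control arrays by 0.11 on the log2 scale, and the treatment arrays overlapped both. Treatment minus control was -0.06. Without control 43 the differences of Trib3 from control were -0.08 for treatment and -0.13 for model. All 3 probe sets read close to or below the 16 added before the log.

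Hspa5 encodes BiP, the main Hsp70 chaperone of the ER, which also holds the stress sensors inactive. It measured 1261.5, 1293.9 and 1158.0 on treatment arrays 31, 32 and 33, 895.3, 1628.1 and 1417.0 on model arrays 21, 22 and 23, and 1857.6, 1867.1 and 1161.6 on control arrays 41, 42 and 43. The treatment arrays were close together, whereas model 21 was the lowest of all arrays and controls 41 and 42 were the highest, with control 43 among the treatment arrays. The difference was -0.04 for treatment minus model (SE 0.25), -0.36 for treatment minus control (95% interval -0.93 to 0.21) and -0.32 for model minus control. Without control 43 these last 2 were -0.58 and -0.54. Single model arrays set the sign of the first, which was -0.29 without model 21 and 0.13 without model 22.

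Xbp1, the transcription factor spliced by IRE1, had the same order at its ends. It read 582.2, 554.3 and 614.6 on the treatment arrays, 474.7, 698.9 and 627.0 on the model arrays and 679.8, 763.8 and 580.4 on the control arrays. Model 21 was again lowest and control 42 highest, and the groups overlapped. The differences were -0.02 for treatment minus model (SE 0.15), -0.20 for treatment minus control and -0.17 for model minus control. Leaving out control 43 gave -0.30 for treatment minus control and -0.28 for model minus control. Leaving out model 21 made the first -0.18 and leaving out model 22 made it 0.09.

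Herpud1, an ER membrane protein of the degradation pathway, read 208.0, 193.1 and 250.8 on the treatment arrays, 241.7, 306.6 and 279.3 on the model arrays and 340.3, 315.1 and 255.3 on the control arrays. Every treatment array lay below every control array, by a narrow margin between treatment 33 and control 43, and treatment and model arrays overlapped. The difference was -0.45 for treatment minus control (SE 0.14, 95% interval -0.78 to -0.12), -0.32 for treatment minus model (SE 0.14, 95% interval -0.65 to 0.00) and -0.13 for model minus control. Without control 43 the treatment minus control difference was -0.57, with a limma adjusted p of 0.0523, and model minus control was -0.24.

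**Figure D2:**
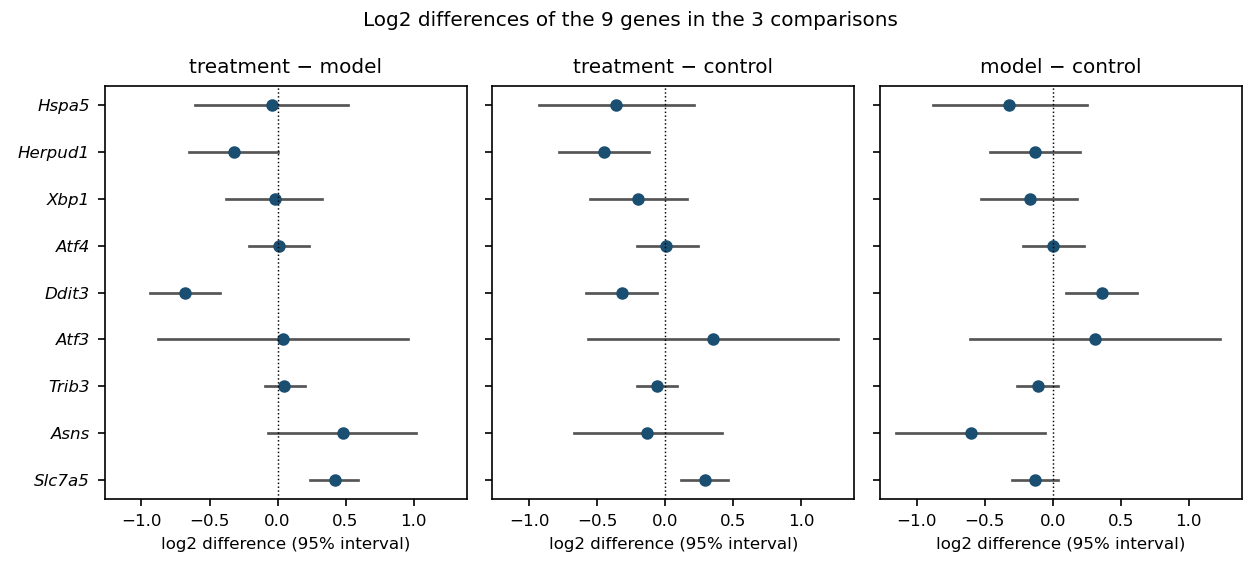
Log2 differences of the 9 genes with their 95% intervals in treatment minus model, treatment minus control and model minus control, 1 row per gene and the dotted line at 0. In treatment minus model the intervals of Ddit3 (-0.94 to -0.42) and Slc7a5 (0.24 to 0.59) lie away from 0, and the interval of Atf3 (-0.88 to 0.96) is the widest. The intervals are not adjusted for the number of genes, and 14.7% of all genes had an unadjusted limma p under 0.05 there. Ddit3 and Slc7a5 were chosen with this contrast known, and each had a limma adjusted p of 0.286.

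Counted over the 9 genes, limma gave 0 that passed in each of the 3 comparisons, with adjusted p-values from 0.286 to 0.975 in treatment against model, 0.128 to 0.96 in treatment against control and 0.313 to 0.985 in model against control. Of all genes tested, 0% passed in treatment against model, 0.510% in treatment against control and 0.0273% in model against control. At an unadjusted p under 0.05 there were 2 of 9 in treatment against model (Slc7a5 higher, Ddit3 lower), 3 in treatment against control (Slc7a5 higher, Ddit3 and Herpud1 lower) and 2 in model against control (Ddit3 higher, Asns lower). The share of all genes at that level was 14.7%, 17.4% and 12.4% in the same order. Groups did not overlap for 2, 3 and 2 of the 9 genes, against 28.0%, 23.3% and 14.5% of all genes. Since the genes were chosen with these contrasts known, nothing is read from these counts. The median difference of the 9 genes was 0.01 in treatment minus model, -0.13 in treatment minus control and -0.13 in model minus control, and the median over all genes was -0.05, -0.04 and 0.02.

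The 36 pairs of the 9 genes differed in how alike their values ran over the 9 arrays. Pearson's r between Hspa5 and Xbp1 was 0.92, and 0.90 after each group's mean was taken out. It was 0.73 between Xbp1 and Herpud1 and 0.68 between Hspa5 and Herpud1, where it was 0.80 and 0.70 within groups. Ddit3 and Herpud1 had r = 0.63 (0.60 within groups). Among the ATF4 members the values within groups were 0.64 for Atf4 and Slc7a5, 0.58 for Atf3 and Asns and 0.57 for Ddit3 and Atf4, against 0.27, 0.27 and 0.18 over all arrays. Ddit3 and Slc7a5 had r = -0.78 over the arrays, but 0.38 within groups, so their opposition lies between the groups. These coefficients describe 9 arrays that share a tissue and a processing, with no test. The genes with a profile most like that of Hspa5, among genes brighter than the median gene, were A2ml1 (r = 0.980), B2m (0.971), Ebag9 (0.970), Creld2 (0.966) and Sdf2l1 (0.965). Creld2 and Sdf2l1 are ER folding factors, B2m encodes a secretory pathway protein of the cell surface, and their r with Hspa5 within groups was 0.976, 0.986 and 0.982. That of A2ml1 was 0.976 and that of Ebag9 was 0.964. A2ml1 spanned 46.1 on model 21 to 3306.8 on control 42. Those most like Ddit3 were Pard3 (0.975), Tent4b (0.962), Slfn9 (0.960), Bloc1s1 (0.947) and Zmym2 (0.939). Within groups their r with Ddit3 was 0.906, 0.803, 0.835, 0.828 and 0.556 in the same order. Slfn9 read 96.5, 75.9 and 120.7 on the treatment arrays, 151.9, 203.2 and 176.9 on the model arrays and 139.3, 139.6 and 137.2 on the control arrays. These genes were picked for their likeness to Ddit3 over the same arrays, so a like order of their groups is not a separate result. Bloc1s1 is a known target of IRE1-dependent messenger decay. It read 142.4, 138.9 and 142.2 on the treatment arrays, 153.7, 180.7 and 181.1 on the model arrays and 146.8, 150.2 and 161.3 on the control arrays.

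**Figure D3:**
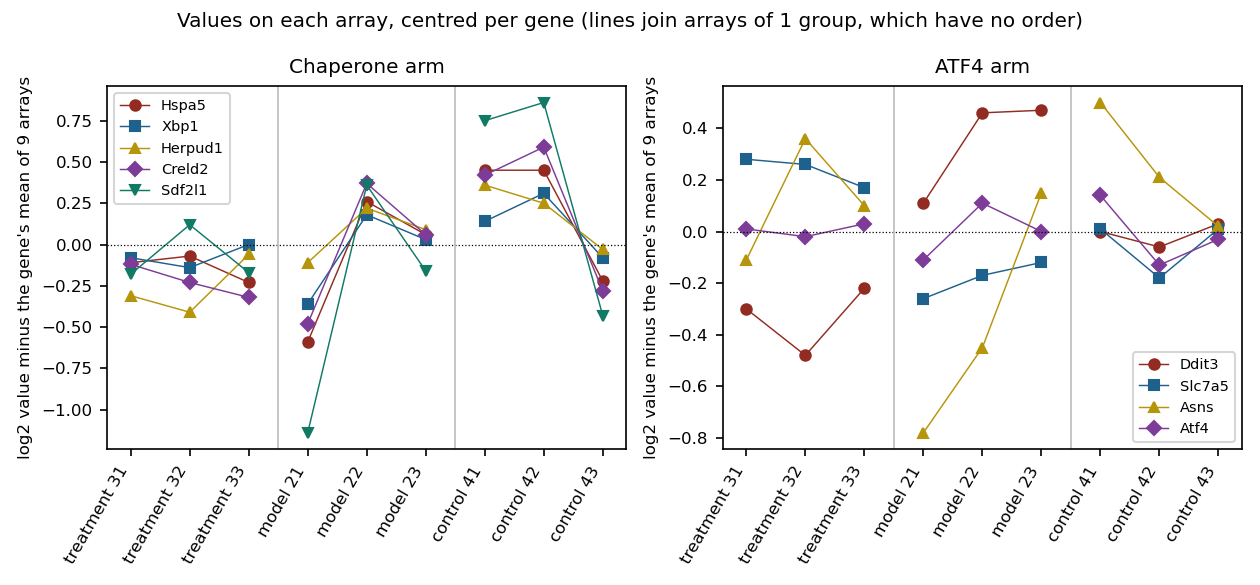
Log2 values on each array minus the gene's mean of 9 arrays, with treatment arrays on the left, then model, then control; the left panel holds Hspa5, Xbp1 and Herpud1 with the chaperone genes Creld2 and Sdf2l1, and the right panel Ddit3, Slc7a5, Asns and Atf4. In the left panel model 21 is the lowest array of every gene but Herpud1 and controls 41 and 42 stand above control 43, and in the right panel Ddit3 and Slc7a5 stand on opposite sides in the treatment arrays.

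The other genes of the pathway were counted from 6 lists of textbook genes, of which 127 of 135 were tested. In limma 0 of the 127 passed in each comparison, with a smallest adjusted p of 0.286 in treatment against model, 0.118 in treatment against control and 0.119 in model against control. At an unadjusted p under 0.05, treatment against model had 4 higher and 2 lower (4.72% of the 127, against 14.7% of all genes). Treatment against control had 4 higher and 15 lower (15.0%, against 17.4% of all genes), and model against control had 3 higher and 19 lower (17.3%, against 12.4%). The signs were 75 positive and 52 negative in treatment minus model, 30 and 97 in treatment minus control and 32 and 95 in model minus control, where 38.9%, 42.2% and 53.5% of all genes were positive.

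The ER chaperones and folding enzymes (23 of 23 tested) had a median difference of 0.01 in treatment minus model, with 12 positive and 11 negative, and -0.20 in both treatment minus control (2 positive, 21 negative) and model minus control (3 positive, 20 negative). Without control 43 the medians were -0.37 in treatment minus control (1 positive, 22 negative) and -0.32 in model minus control (2 positive, 21 negative). None of the 23 passed in limma with all arrays. An unadjusted p under 0.05 was reached by 1 in treatment against model (4.35%, against 14.7% of all genes), 1 in treatment against control (4.35%, against 17.4%) and 3 in model against control (13.0%, against 12.4%). Pdia3, a disulfide isomerase of glycoprotein folding, read 847.3, 820.0 and 913.4 on the treatment arrays, 587.0, 816.8 and 678.4 on the model arrays and 1244.4, 1103.7 and 747.8 on the control arrays. Only treatment and model arrays did not overlap for Pdia3. P4hb, another isomerase, had 0.26 in treatment minus model, -0.07 in treatment minus control and -0.33 in model minus control. Uggt1, the folding sensor for glycoproteins, had 0.22, 0.02 and -0.20 in the same comparisons. Ero1b, an oxidase that recharges the isomerases, went the other way with -0.37, -0.19 and 0.19.

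Translocation genes (23 of 23) had medians of 0.08 in treatment minus model, -0.15 in treatment minus control and -0.25 in model minus control. The medians against control were -0.22 for treatment and -0.41 for model without control 43. Ssr1, a subunit of the complex beside the translocon, read 326.9, 315.0 and 289.7 on the treatment arrays, 214.3, 268.5 and 239.5 on the model arrays and 352.1, 325.7 and 281.7 on the control arrays. Its treatment arrays all lay above its model arrays and overlapped the controls. Srp54a, the GTPase of the signal recognition particle, had 0.32 in treatment minus model, whereas Srp68 of the same particle had -0.23 and Sec62, a translocon partner, -0.19. ER degradation genes (17 of 20) had medians of 0.02, -0.12 and -0.15 in the same 3 comparisons, with Edem2 at 0.31, Sel1l at 0.10, Selenos at -0.11 and Ufd1 at -0.13 in treatment minus model. The degradation medians against control were -0.15 for treatment and -0.20 for model without control 43. The sensors and processing enzymes (15 of 16) had medians of 0.08, -0.11 and -0.12, with Creb3l2 at 0.23, Creb3 at 0.15, the eIF2 alpha kinase Eif2ak1 at -0.15 and the protease Mbtps1, which cuts ATF6, at -0.24 in treatment minus model. Their medians without control 43 were -0.16 for treatment and -0.16 for model against control.

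The ATF4 targets (30 of 33) had medians of 0.02 in treatment minus model, -0.05 in treatment minus control (14 positive, 16 negative) and 0.05 in model minus control. Without control 43 the median in treatment minus control turned to 0.08 (19 positive, 11 negative), and that in model minus control was 0.05. Psph, the last enzyme of serine synthesis, read 192.2, 231.4 and 125.3 on the treatment arrays, 55.1, 55.8 and 161.3 on the model arrays and 126.3, 55.3 and 41.3 on the control arrays. Model 23 and control 41 lay within the range of the treatment arrays, and the treatment minus model difference of 1.0 had an SE of 0.45. Slc1a5, a glutamine carrier, had 0.40 in treatment minus model, Ppp1r15a, the stress-induced subunit of the eIF2 alpha phosphatase, had -0.19, and Sesn2, a leucine sensor that restrains mTORC1, had -0.47. None of the 30 passed in limma with all arrays, and in treatment against model none had an unadjusted p under 0.05, against 14.7% of all genes. In treatment against control 3 did, all higher (10.0%, against 17.4%), and in model against control 2, also higher (6.67%, against 12.4%). Cbs, which had the smallest p of these 3, read 90.7, 140.4 and 87.6 on the treatment arrays. The model arrays read 74.2, 39.1 and 104.5 for Cbs and the control arrays 27.6, 27.3 and 48.2. Its difference was 1.28 in treatment minus control (SE 0.30) and 0.77 in model minus control (SE 0.30).

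The tRNA synthetases (19 of 20), which load amino acids onto tRNA, had medians of 0.06 in treatment minus model, -0.06 in treatment minus control and -0.10 in model minus control, and the last 2 were -0.09 and -0.16 without control 43. In model minus control 2 were positive and 17 negative, with 6 at an unadjusted p under 0.05 (31.6%, against 12.4% of all genes), all lower, and 0 passing in limma. Model 21 was the lowest array of 10 of the 19 (52.6%, against 13.9% of all genes). Iars1, for isoleucine, read 160.5, 183.5 and 143.0 on the treatment arrays, 133.9, 142.9 and 133.8 on the model arrays and 224.7, 218.0 and 208.8 on the control arrays. Both induced groups lay below all controls, control 43 included. The Iars1 difference was -0.61 in model minus control (SE 0.10, limma adjusted p = 0.119) and -0.39 in treatment minus control (SE 0.10, limma adjusted p = 0.124). Farsb, a subunit for phenylalanine, had 0.34 in treatment minus model, Eprs1, for glutamate and proline, 0.25, and Cars1, for cysteine, 0.18.

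**Figure D4:**
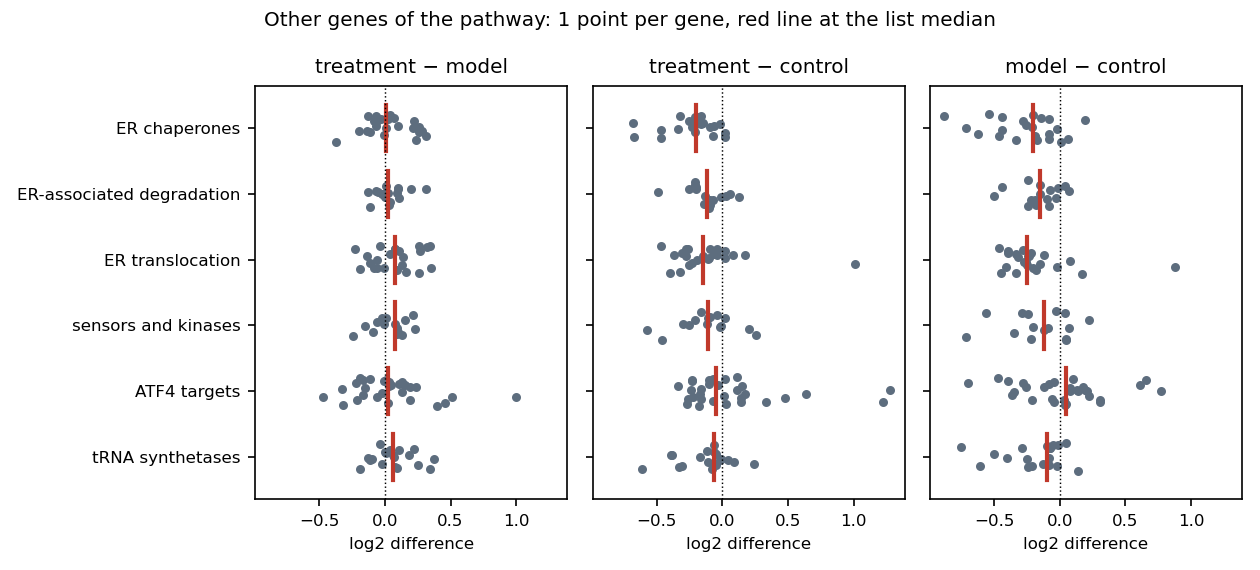
Log2 differences of the 127 other pathway genes in the 3 comparisons, 1 point per gene and 1 row per list, with a red line at the median of each list. The chaperone and translocation medians sit near 0 in treatment minus model (0.01 and 0.08) and below 0 in treatment minus control (-0.20 and -0.15, or -0.37 and -0.22 without control 43) and model minus control (-0.20 and -0.25, or -0.32 and -0.41 without control 43).

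Array by array, the ER lists followed single arrays, and so did the tRNA synthetases. Of 23 chaperones, 18 had their lowest value on model 21, where 13.9% of all genes did, and 10 had their highest on control 41 and 7 on control 42, where 19.8% and 7.14% of all genes did. Of 23 translocation genes, 17 were lowest on model 21 and 13 highest on control 41. Model 21 was also the lowest array of 8 of 17 degradation genes, 7 of 15 sensors and 10 of 19 tRNA synthetases. Of the 19 synthetases, 8 were highest on treatment 32, where 9.61% of all genes were. The mean chaperone log2 value, centred per gene, was -0.06, -0.12 and -0.01 on the treatment arrays, -0.44, 0.14 and 0.00 on the model arrays and 0.32, 0.31 and -0.14 on the control arrays. Most epithelial markers moved with it in the controls. The summed intensity of the 15 measured was 4576 to 7026 on the treatment arrays and 3980 to 5413 on the model arrays. It was 20873, 15330 and 5091 on controls 41, 42 and 43. Bright genes such as Krt8 (4150.4, 3006.0 and 233.8 on these controls) weigh most in the sums. Cldn3 (512.9, 459.1 and 1047.2) and Cldn4 (83.5, 47.6 and 133.7) went the other way. Model 21 had the lowest epithelial sum of all arrays, 3980, although model 22, with a chaperone mean above 0, had only 4247. Leukocyte markers (7 of 11 measured) summed to 103 to 179 on the treatment arrays, 105 to 541 on the model arrays, with model 22 the highest, and 153 to 332 on the control arrays. Of 7 plasma cell markers only Prdm1 and Sdc1 were tested, and they summed to 153 to 172, 203 to 233 and 199 to 261 in the same groups. Smooth muscle markers were positive for 12 of 12 in both treatment minus control (median 0.43) and model minus control (median 0.48). They summed to 28263 to 34163 on the treatment arrays and 29594 to 34850 on the model arrays. On controls 41, 42 and 43 they summed to 18584, 29760 and 26134. Stromal markers were positive for 4 of 9 in treatment minus control and 9 of 9 in model minus control. None of the markers of these lists passed in any comparison. The part of cell make-up in the chaperone values was not tested.

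The count of pathway genes that passed against control turned on control 43. Without it, limma passed 10 of 127 (7.87%) in treatment against control, 3 higher and 7 lower, where 6.56% of all genes passed, and 22 of 127 (17.3%) in model against control, 3 higher and 19 lower, where 12.6% of all genes passed. Treatment against model still had 0, and 0 of the 9 stress genes passed in any comparison. Of the 30 ATF4 targets, 2 higher and 2 lower passed in treatment against control (13.3%), and 1 higher and 2 lower in model against control (10.0%). In model against control the lower genes then included Syvn1, the ER degradation ligase, with -0.74 (limma adjusted p = 0.00593), Dnajc3, a BiP partner that also blocks PERK, with -1.31 (limma adjusted p = 0.013), and Iars1 with -0.63 (limma adjusted p = 0.014). In treatment against control Syvn1 had -0.72 (limma adjusted p = 0.00614) and Dnajc3 -1.10 (limma adjusted p = 0.0259). Sec11a, a signal peptidase subunit, was higher, by 1.28 in treatment against control and 1.15 in model against control. Syvn1 read 125.4, 126.9 and 125.6 on the treatment arrays, 123.1, 128.7 and 122.8 on the model arrays, and 199.2, 239.7 and 127.5 on controls 41, 42 and 43. Control 43 thus lay among the induced arrays for Syvn1. These genes are named from the 8 of smallest p in each comparison without control 43, a setting that leaves 2 controls. Control 43 was singled out after its values were seen to lie near model 21. The counts and p-values without it are therefore a description, not support. Epithelial marker sums were 20873 and 15330 on controls 41 and 42 and 5091 on control 43. Cldn3 and Cldn4 of this list were instead highest on control 43. The part of these markers was not tested.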

How the data were processed

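The values analysed were normalised intensities of probe sets on a linear scale, as the authors deposited them, from 9 Affymetrix arrays of uterine total RNA labelled with biotin. MAS5 is named in the submitters' processing notes, but how it was set, whether arrays were scaled and what it called detected are not given in the sources used. Medians were 23.56 to 24.02 and the number of arrays limits the precision. Of 31099 probe sets, 57 controls were left out, and 20826 of the rest had 1 gene symbol, 436 several and 9780 none. Symbols of 20758 were matched to RefSeq.

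A probe set was kept where 3 or more arrays had it at the array's 40th percentile or higher (19326, of which 14553 had 1 symbol). The highest-mean probe set stood for a gene, giving 10973. Contrasts of 1 fit to log2(intensity + 16) of all 9 arrays used limma 3.58.1 under R 4.3.3 (functions lmFit and eBayes, trend in the variance, two-sided, 6 residual degrees of freedom). P-values were adjusted over all genes by Benjamini-Hochberg, with a threshold of 0.05. The fit was tested on simulated arrays. Members, pathway lists and tests were chosen with earlier results of these data known. Of each list, the up to 4 genes with the smallest p in treatment against model were named, and up to 8 that passed in a comparison. Genes most like Ddit3 and Hspa5 were the 5 of highest Pearson r over the 9 arrays among genes above the median gene's mean. Motifs were searched in RefSeq promoter windows with Python 3.11.15, and figures drawn with matplotlib 3.10.9. Alternatives were other added constants, normalisations, filters, probe set rules and variance models, array weights, the 6 compared arrays alone, a replicate block and each array left out in turn. Slc3a2, Cbs, Syvn1, Dnajc3 and Sec11a were named after their values were seen.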

Additional observations from a re-analysis of the deposited data

How the results depend on the processing

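Of the recomputed differences of the 9 stress genes, 551 stayed within 1 SD of the value reported and 10 did not. All 10 belonged to Slc7a5, Ddit3 and Trib3, which kept their signs. Sign changes were seen for Atf4, Atf3, Hspa5 and Xbp1. With array weights estimated gene by gene, 1277 genes passed in treatment against control and 852 in model against control, of the other pathway genes 21 and 9, and of the stress genes 2 (Slc7a5 at 0.37 and Herpud1 at -0.51) and 1 (Ddit3 at 0.44). Against control, the count of 56 for treatment was 27 with a replicate block on the final digit of each array's number, and that of 3 for model was 1 without the filter and 1 with the 6 compared arrays alone. The labels do not say that this digit pairs arrays. Leaving out 1 array gave 0 to 3 genes in treatment against model (3 without model 23), 0 to 720 in treatment against control (0 without treatment 33, 720 without control 43) and 0 to 1384 in model against control (1384 without control 43), and for the other pathway genes 0 to 10 in treatment against control and 0 to 22 in model against control. A filter at the 60th percentile removes Slc7a5 and Trib3. The cause of these changes was not tested. With 3 arrays a group and no detection calls, changes of dim genes such as Trib3 may be missed.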
